A study of Mus musculus with 12 samples.

Results

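The sodium pump (Na+,K+-ATPase) of the plasma membrane is built from a catalytic alpha subunit and a glycosylated beta subunit, and many pumps carry a small single-span FXYD protein beside them. The 7 genes described here are 3 beta subunit genes (Atp1b1, Atp1b2 and Atp1b3) and 4 FXYD regulator genes (Fxyd1, Fxyd5, Fxyd6 and Fxyd7), of 23183 genes in the deposited tables. They were taken by gene symbol, and the set was chosen by their irradiated against control values in these same libraries, so every irradiated against control value of a member is a description with no test. The difference between hippocampus and prefrontal cortex was not itself used in that choice, and it is the comparison tested here. It is built from the same libraries as the contrasts that were used, so its p-values are not free of that choice.

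The data are 12 RNA-seq libraries from male C57BL/6 mice. Irradiated mice received X-rays to the abdomen, as a model of chronic intestinal injury, and control mice were not irradiated; the brain was collected in the chronic phase, and the labels give no time. Each of 3 irradiated and 3 control mice gave 1 hippocampus and 1 prefrontal cortex library, which makes 4 groups of 3: Hippo_13Gy, Hippo_con, PFC_13Gy and PFC_con. The dose of 13 Gy stands in the library names. No mouse carried a transgene by the labels, and all libraries carry the same batch label. These are bulk tissues, so a smaller number of cells of a type and less RNA per cell cannot be told apart in any value below.

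The pump exports sodium and imports potassium at the cost of ATP, and in brain it restores the ion gradients after neuronal firing and powers the uptake of transmitters. The beta subunit is needed to fold the alpha subunit and bring it to the membrane, and each FXYD protein shifts the affinity or the maximal rate of the pump. Neurons and glia use different sets of subunits, and Atp1b2, also called AMOG, was first known as an adhesion molecule on glia. Fxyd1 encodes phospholemman, an inhibitor of the pump that phosphorylation relieves, and it is abundant in choroid plexus. Fxyd5 encodes dysadherin, which also weakens cell adhesion, Fxyd6 encodes phosphohippolin, and Fxyd7 is expressed mainly in brain.

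Fxyd5, Fxyd7 and Fxyd1 lie head to tail on the minus strand of mouse chromosome 7 in mm10, at chr7:31032722-31042481, chr7:31042513-31051467 and chr7:31051678-31057199. Only 31 and 210 bases separate these neighbouring genes in the GENCODE M21 annotation, and the Fxyd5 gene holds the microRNA gene Mir7050 on the same strand. Fxyd6 lies at chr9:45370185-45396159 on the plus strand, 3509 bases before Fxyd2, and Atp1b3 at chr9:96332655-96364442 on the minus strand. Atp1b1 lies at chr1:164437109-164458355 on the minus strand, where 617 bases overlap Nme7 on the other strand, and Atp1b2 at chr11:69599736-69605942 on the minus strand. The library kit marks strand, but no source used here says whether the authors' counting used it, so fragments of Atp1b1 and Nme7 may be shared.

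Promoter windows are shown for a CpG-rich gene that was the most abundant member and for 2 FXYD genes whose levels differed between the regions in opposite directions. Each window is 300 bases of the RefSeq annotation of GRCm38.p6, 250 before the transcription start and 50 from it on, read 5′ to 3′ on the gene's strand, with 3 kinds of motif in capitals. These are the GC box, spelled GGGCGG, the CCAAT box, named by its letters, and the TATA letters, spelled TATAAA, each searched on either strand and none overlapping another. Of the 7 members, 5 had such a window, and Fxyd7 and Atp1b2 did not.
Atp1b1, chr1:164458306-164458605, minus strand: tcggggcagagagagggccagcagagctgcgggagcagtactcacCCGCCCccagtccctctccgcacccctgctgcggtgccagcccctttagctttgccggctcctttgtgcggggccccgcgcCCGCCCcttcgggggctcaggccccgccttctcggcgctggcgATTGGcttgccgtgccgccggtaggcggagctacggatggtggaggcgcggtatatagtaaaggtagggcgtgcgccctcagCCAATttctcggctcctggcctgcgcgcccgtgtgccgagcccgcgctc
Fxyd1, chr7:31054804-31055103, minus strand: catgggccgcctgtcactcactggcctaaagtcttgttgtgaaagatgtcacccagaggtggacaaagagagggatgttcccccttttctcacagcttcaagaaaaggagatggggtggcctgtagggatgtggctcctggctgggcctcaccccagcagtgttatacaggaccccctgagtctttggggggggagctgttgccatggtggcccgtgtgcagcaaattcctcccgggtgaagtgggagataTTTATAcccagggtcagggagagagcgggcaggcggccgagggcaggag
Fxyd6, chr9:45369935-45370234, plus strand: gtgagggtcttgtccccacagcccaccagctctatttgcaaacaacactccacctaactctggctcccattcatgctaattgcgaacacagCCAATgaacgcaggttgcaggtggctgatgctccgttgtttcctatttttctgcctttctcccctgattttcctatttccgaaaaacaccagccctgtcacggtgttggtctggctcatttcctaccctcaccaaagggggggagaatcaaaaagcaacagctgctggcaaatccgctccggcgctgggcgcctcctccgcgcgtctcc

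The Atp1b1 window was 71.0% G and C, held 31 CpG and carried 2 GC boxes and 2 CCAAT boxes. The Fxyd1 window, which lies inside the longer GENCODE gene, was 58.7% G and C with 6 CpG, and its single capital run, TATA letters on the opposite strand, began at base 2 after the start. The Fxyd6 window was 54.3% G and C with 12 CpG and 1 CCAAT box. Over 32851 mouse windows of this length the medians were 52.7% G and C and 7 CpG, and 35.7% held a GC box, 37.4% a CCAAT box and 13.6% the TATA letters. These matches are letters in a window and not measured sites.

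All levels are FPKM, fragments per kilobase of transcript scaled to the library's total, and all differences are in log2(FPKM + 1) with the standard error (SE) of the fit. Tests used limma-trend and took in genes that averaged 1 FPKM or more in the libraries compared, and a gene was called at a Benjamini-Hochberg adjusted p below 0.05 over all genes tested. All 7 members passed the filter on low values in each comparison. The libraries were of similar estimated depth, 15.6 to 18.8 M (mega) fragments. Fxyd5 rested on the fewest, about 137 to 408 fragments per library, against 24159 to 42092 for Atp1b1. Region markers followed the tissue labels: 11 of 12 hippocampal subfield genes were called higher in hippocampus in irradiated and in control mice, and 9 of 12 cortical layer genes were called lower and 2 higher in both. The prefrontal samples also carried striatal genes, at a summed 878 to 936 FPKM in irradiated and 839.8 to 1095 FPKM in control mice, against 82.3 to 122 and 111 to 130.5 FPKM in the hippocampus of the same mice.

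One hippocampal library stood apart. In Hippo_13Gy mouse 2 the transcripts of the choroid plexus, the epithelium in the ventricles that makes cerebrospinal fluid, were far lower. Ttr, the most abundant of them, had 52.1 FPKM there. The other irradiated hippocampi had 2974 and 4453 FPKM, and the control hippocampi 3596 to 5625 FPKM. For Fxyd1 and Atp1b3 the Hippo_13Gy mean and the differences that use it are given with and without Hippo_13Gy mouse 2. So are the Fxyd1 and Fxyd7 shares and the median irradiated minus control differences of the choroid plexus list and the ependymal list. Correlations between genes take in this library.

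**Figure D1:**
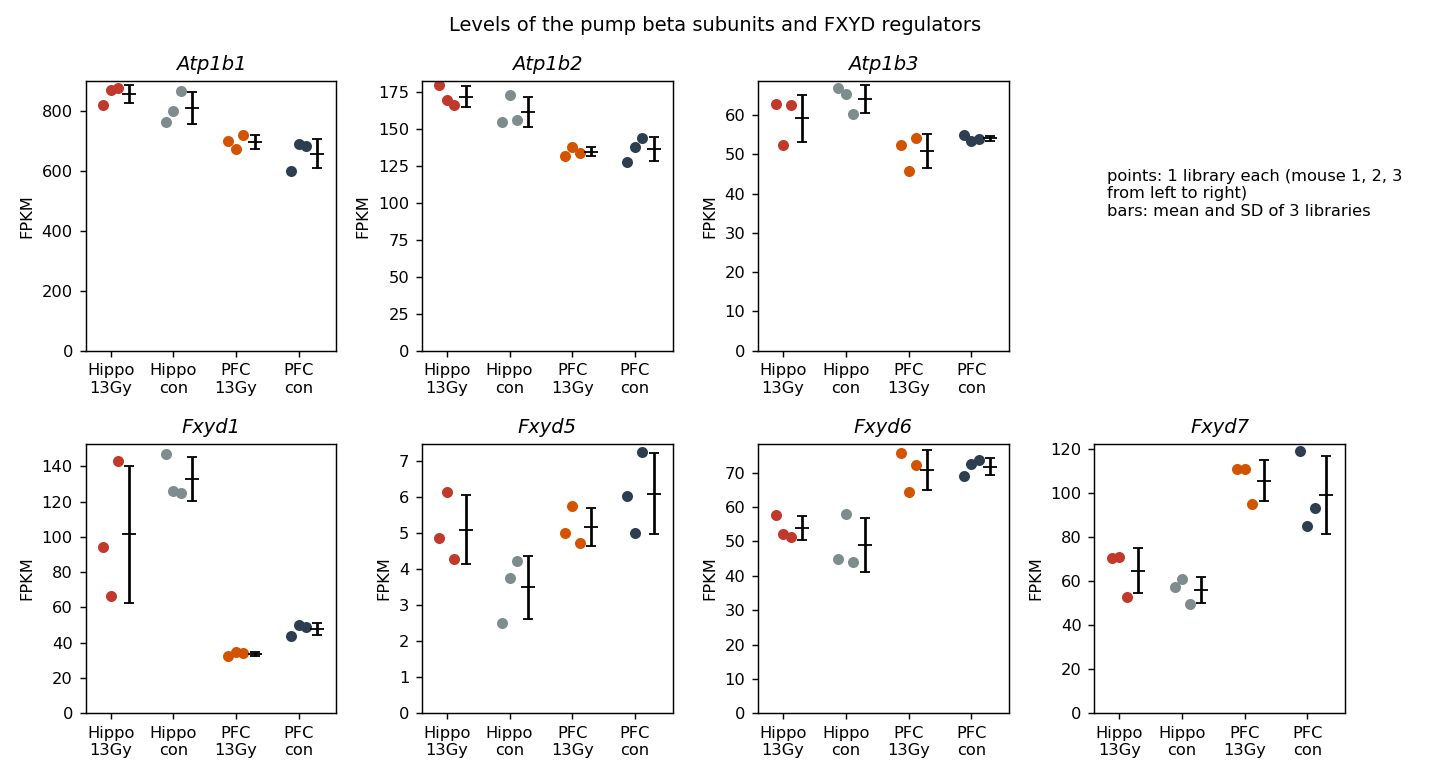
FPKM (linear axes from 0) of the 3 beta subunit genes and 4 FXYD genes in the 4 groups; each point is 1 library, with mice 1 to 3 from left to right, and the bars are the mean and SD of 3 libraries. Atp1b1 and Atp1b2 lie higher in hippocampus, the irradiated Atp1b3 points of the 2 regions overlap, Fxyd6 and Fxyd7 lie lower in hippocampus, and the irradiated hippocampal points of Fxyd1 spread from 66.6 to 143 FPKM.

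Atp1b1 was by far the most abundant member and Fxyd5 the least. Atp1b1, the widespread beta subunit, averaged 857 ± 30.5 FPKM in Hippo_13Gy, 812 ± 52.3 in Hippo_con, 698 ± 23.1 in PFC_13Gy and 659 ± 49.7 in PFC_con (SD, n = 3 each). Atp1b2 averaged 172 ± 7.15, 161 ± 9.91, 135 ± 2.92 and 137 ± 8.15 FPKM in Hippo_13Gy, Hippo_con, PFC_13Gy and PFC_con. Atp1b3 averaged 59.3 ± 6.02, 64.1 ± 3.49, 50.8 ± 4.29 and 54.1 ± 0.768 FPKM in the same order of groups. Without Hippo_13Gy mouse 2 its Hippo_13Gy mean was 62.7 FPKM. The coefficient of variation within a group of 3 ran from 1.42% to 10.2% over these beta genes.

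The FXYD genes varied more. Fxyd1 averaged 101 ± 38.9 FPKM in Hippo_13Gy, 133 ± 12.5 in Hippo_con, 33.8 ± 1.23 in PFC_13Gy and 47.7 ± 3.35 in PFC_con (SD, n = 3 each). Without Hippo_13Gy mouse 2 its Hippo_13Gy mean was 119 FPKM. Fxyd7 averaged 64.8 ± 10.3, 56.0 ± 5.74, 106 ± 9.3 and 99.1 ± 17.7 FPKM in that order of groups, and Fxyd6 averaged 53.8 ± 3.53, 49.0 ± 7.78, 70.8 ± 5.85 and 71.7 ± 2.42 FPKM. Fxyd5 averaged 5.09 ± 0.948, 3.49 ± 0.88, 5.15 ± 0.524 and 6.09 ± 1.12 FPKM. Fxyd1 had both the widest group, with a coefficient of variation of 38.3% in Hippo_13Gy, and a tight one, at 3.64% in PFC_13Gy.

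Between the regions, the 3 beta genes and Fxyd1 averaged higher in hippocampus and Fxyd6 and Fxyd7 lower in irradiated and in control mice, while Fxyd5 was called lower in control mice and not in irradiated mice, its irradiated difference of -0.02 changing sign with single libraries left out. In irradiated mice 5 of 7 differences were called, 3 higher and 2 lower, in a comparison that called 29.2% of 12878 genes. In control mice, which share no library with the irradiated comparison, all 7 were called, 4 higher and 3 lower, where 30.3% of 12923 genes were called. Hippocampal and prefrontal libraries stood apart without overlap for 5 of 7 members in irradiated mice, against 44.8% of all genes, and for 7 of 7 in control mice, against 45.7%. The median absolute region difference of the members was 0.35 in irradiated and 0.55 in control mice, against 0.16 over all genes in each.

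**Figure D2:**
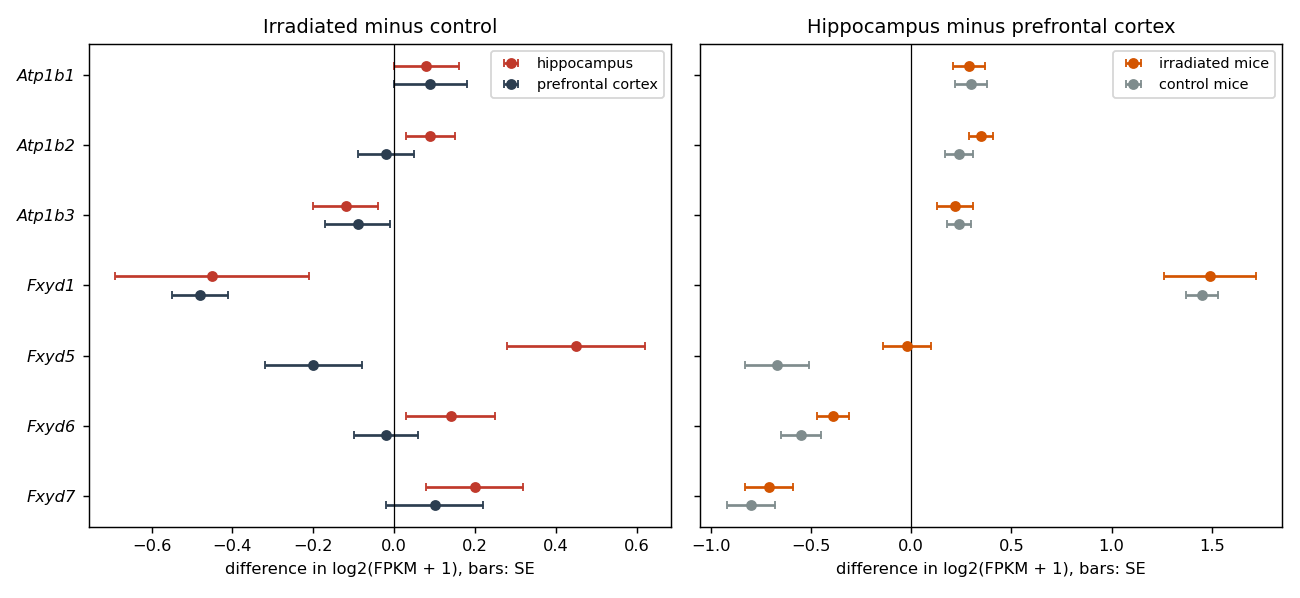
Differences in log2(FPKM + 1) with SE bars for the 7 members: left, irradiated minus control in hippocampus and prefrontal cortex; right, hippocampus minus prefrontal cortex in irradiated and control mice. On the right, Fxyd1 lies at 1.49 in irradiated and 1.45 in control mice, and Fxyd5 at -0.02 and -0.67.

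Fxyd1, the choroid-rich inhibitor phospholemman, had the largest region difference of the set. It had 94.4, 66.6 and 143 FPKM in the hippocampus of irradiated mice 1, 2 and 3, against 32.4, 34.7 and 34.3 FPKM in their prefrontal cortex. Control mice 1, 2 and 3 had 147, 126 and 125 FPKM in hippocampus, against 43.9, 50.3 and 48.9 FPKM in prefrontal cortex. Every hippocampal library was above every prefrontal one, including that of irradiated mouse 2, where choroid plexus transcripts were low. The difference was 1.49 ± 0.23 (SE, n = 3 each) in irradiated mice (limma adjusted p = 0.00224) and 1.45 ± 0.08 in control mice (limma adjusted p = 2.9e-06), about 2.8-fold and 2.74-fold on the FPKM + 1 scale. Without Hippo_13Gy mouse 2 it was 1.75 in irradiated mice. The choroid plexus list moved with it, 21 genes summing to 80.3 to 4806 FPKM in irradiated hippocampus against 9.18 to 9.84 in irradiated prefrontal cortex, and to 3857 to 6031 FPKM against 11.9 to 74.0 FPKM in control mice; in irradiated mice 15 and in control mice 21 of these 21 genes were called higher. In mouse 2, where the list summed to 80.3 FPKM, the within-mouse difference of Fxyd1 was 0.92, against 1.51 and 2.03 in the other irradiated mice and 1.31 to 1.72 in control mice. Other lists were higher in hippocampus too. In irradiated mice 8 of 8 ependymal, 12 of 12 oligodendrocyte and 8 of 12 astrocyte genes were called higher. In control mice these counts were 9 of 9, 11 of 12 and 7 of 12. The part of any of these cells in the Fxyd1 difference was not tested.

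Fxyd7, a regulator expressed mainly in brain, was lower in hippocampus in every mouse. It had 70.4, 71.0 and 52.9 FPKM in irradiated hippocampus, against 111, 111 and 94.9 FPKM in irradiated prefrontal cortex. Control mice had 57.2, 61.1 and 49.8 FPKM in hippocampus, against 119, 85.1 and 93.2 FPKM in prefrontal cortex, with no overlap in either treatment. The difference was -0.71 ± 0.12 in irradiated mice (limma adjusted p = 0.0036) and -0.80 ± 0.12 in control mice (limma adjusted p = 0.000995). So 2 genes 210 bases apart, Fxyd7 and Fxyd1, differed between the regions in opposite directions.

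Fxyd6, phosphohippolin, was also lower in hippocampus. It had 57.8, 52.2 and 51.4 FPKM in irradiated hippocampus, against 75.7, 64.3 and 72.3 FPKM in irradiated prefrontal cortex, and 44.9, 57.9 and 44.0 FPKM in control hippocampus, against 69.1, 72.4 and 73.8 FPKM in control prefrontal cortex. The groups did not overlap, and the difference was -0.39 ± 0.08 in irradiated mice (limma adjusted p = 0.00754) and -0.55 ± 0.10 in control mice (limma adjusted p = 0.00271). The neuron list summed lower in hippocampus as well, at 3239 to 3433 FPKM against 3952 to 4199.8 FPKM in irradiated mice (5 of 12 genes called lower and 0 higher) and 3187 to 3385 against 3831 to 4068 FPKM in control mice (6 called lower and 1 higher), and the striatal genes given above were low in hippocampus. The part of these cells in the Fxyd6 and Fxyd7 differences was not tested.

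Fxyd5, dysadherin, did not pass in irradiated mice and was called lower in hippocampus in control mice. Irradiated mice 1, 2 and 3 had 4.87, 6.13 and 4.27 FPKM in hippocampus, against 4.99, 5.74 and 4.73 FPKM in prefrontal cortex, a difference of -0.02 ± 0.12 (limma adjusted p = 0.916). Control mice had 2.51, 3.75 and 4.21 FPKM in hippocampus, against 6.03, 5.0 and 7.23 FPKM in prefrontal cortex, a difference of -0.67 ± 0.16 (limma adjusted p = 0.013). In irradiated mice the regions overlapped, and hippocampus held both the highest and the lowest value. In control mice all hippocampal libraries lay below the prefrontal ones. Endothelial genes differed between the regions by a median of -0.15 in irradiated mice, with 0 of 12 called by limma (1 at an unadjusted p below 0.05), and of -0.47 in control mice, with 6 of 12 called lower. Meningeal and perivascular fibroblast genes had medians of 1.02, with 9 of 9 tested called higher, and -0.34, with 3 of 9 called higher and 0 lower. The part of these cells in the Fxyd5 difference was not tested. That the call is made in one treatment and not in the other is no test of a change, and the difference of the differences, 0.64 ± 0.22, is built from the contrasts used to choose the genes.

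Atp1b1 and Atp1b2 were called higher in hippocampus in irradiated and in control mice, and Atp1b3 in control mice. Atp1b1 had 822, 872 and 877 FPKM in irradiated hippocampus, against 701, 674 and 720.3 FPKM in irradiated prefrontal cortex, and 764, 802 and 868 FPKM in control hippocampus, against 602, 689.7 and 686 FPKM in control prefrontal cortex. Its difference was 0.29 ± 0.08 in irradiated mice (limma adjusted p = 0.0234) and 0.30 ± 0.08 in control mice (limma adjusted p = 0.018), with no overlap. With 1 library left out the call was lost in 5 of 6 cases in irradiated mice and 2 of 6 in control mice, while the difference stayed between 0.24 and 0.34.

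Atp1b2, the glial adhesion subunit, had 179.9, 169.8 and 166 FPKM in irradiated hippocampus, against 132, 138 and 134 FPKM in irradiated prefrontal cortex, and 155, 173 and 156 FPKM in control hippocampus, against 128, 138 and 144 FPKM in control prefrontal cortex. It was 0.35 ± 0.06 higher in irradiated mice (limma adjusted p = 0.00313), a call that held with any 1 library left out, and 0.24 ± 0.07 higher in control mice (limma adjusted p = 0.0309), a call lost in 3 of 6 such cases. The astrocyte list was higher in hippocampus too, at 1442 to 1597 against 1051 to 1167 FPKM in irradiated mice and 1482 to 1546 against 1120.0 to 1219.7 FPKM in control mice, with 8 and 7 of 12 genes called higher. Its part in the Atp1b2 difference was not tested.

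Atp1b3 had 62.8, 52.3 and 62.6 FPKM in irradiated hippocampus, against 52.4, 45.9 and 54.1 FPKM in irradiated prefrontal cortex. Control mice had 66.8, 65.4 and 60.2 FPKM in hippocampus, against 54.9, 53.5 and 53.9 FPKM in prefrontal cortex. The irradiated groups overlapped and the control groups stood apart. The difference was 0.22 ± 0.09 in irradiated mice, which did not pass (limma adjusted p = 0.12), and 0.24 ± 0.06 in control mice (limma adjusted p = 0.0164), a call lost in 3 of 6 cases with 1 library left out. The irradiated difference passed with the mouse as a block (limma adjusted p = 0.00932). It also passed without Hippo_13Gy mouse 2, where it was 0.30 (limma adjusted p = 0.032). The within-mouse differences were 0.26, 0.18 and 0.21 in irradiated and 0.28, 0.29 and 0.16 in control mice.

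The set's makeup therefore differed by region mainly on the FXYD side. Fxyd1 made up 44.1 ± 11.7% of the summed FPKM of the 4 FXYD genes in Hippo_13Gy, against 15.7 ± 1.1% in PFC_13Gy, and 55.0 ± 3.99% in Hippo_con, against 21.3 ± 2.65% in PFC_con (SD, n = 3 each). It held 41.5%, 34.0% and 56.9% in Hippo_13Gy mice 1, 2 and 3, and the mean without mouse 2 was 49.2%. Fxyd7 made up 29.4 ± 7.72% in Hippo_13Gy, against 49.0 ± 2.74% in PFC_13Gy, and 23.2 ± 1.23% in Hippo_con, against 43.9 ± 5.33% in PFC_con. Among the beta genes the shares barely moved: Atp1b1 held 76.7% to 80.0% in every library. The summed beta level was 4.88 ± 0.621 times the summed FXYD level in Hippo_13Gy and 4.32 ± 0.484 times in Hippo_con. This ratio was 4.11 ± 0.257 in PFC_13Gy and 3.80 ± 0.442 in PFC_con. In Hippo_13Gy mice 1, 2 and 3 it was 4.68, 5.58 and 4.39, so mouse 2 raised the mean. These are shares of transcript level per length and say nothing of protein.

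**Figure D3:**
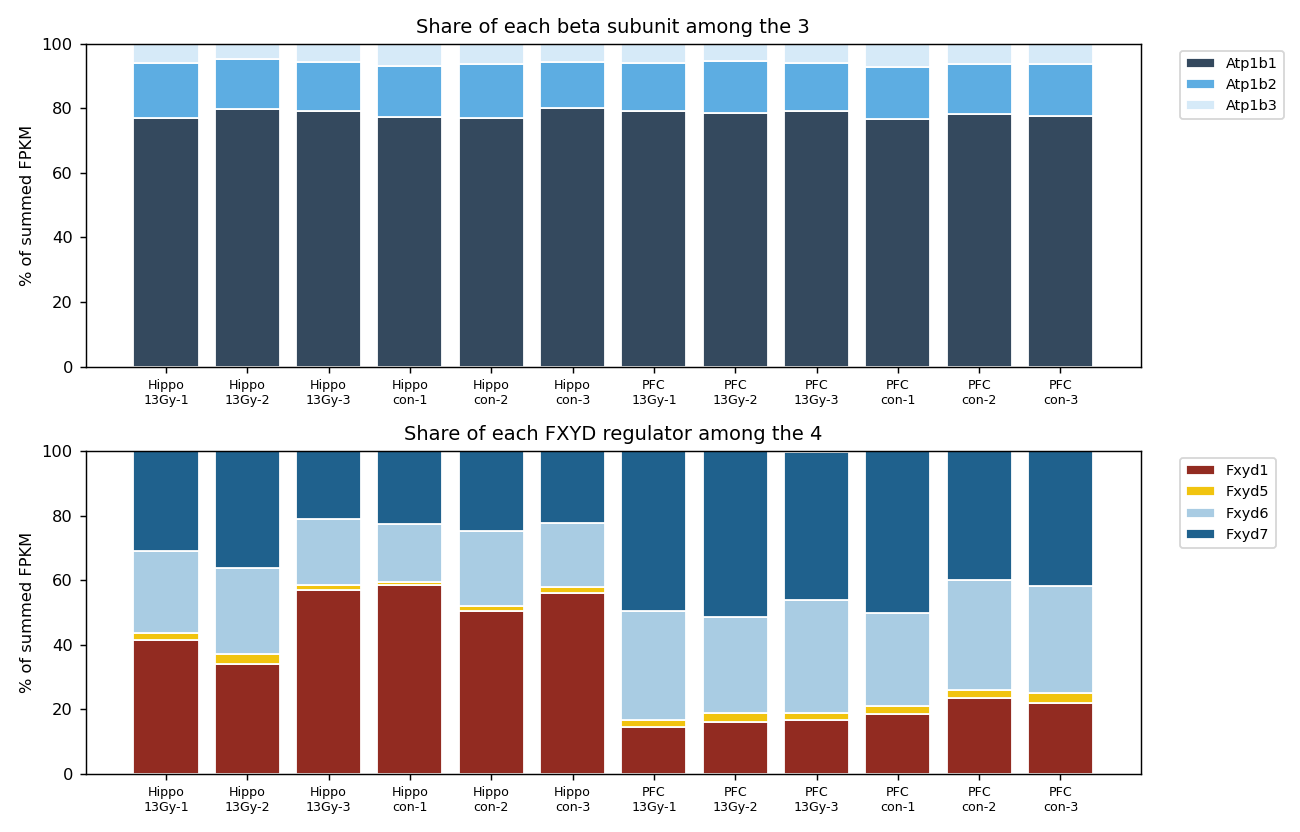
Share of each gene in the summed FPKM of the 3 beta genes (top) and of the 4 FXYD genes (bottom) in each of the 12 libraries, irradiated left of control within a region. Atp1b1 holds between 76.7% and 80.0% everywhere, while Fxyd1 holds 34.0% to 58.4% in hippocampus and 14.5% to 23.6% in prefrontal cortex.

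Irradiated against control values were the ones that chose the members. Across all genes 0% of 12947 were called in hippocampus (1361 had an unadjusted p below 0.05) and 0.00786% of 12729, a single gene that is no member, in prefrontal cortex. The libraries of irradiated and control mice did not overlap for 1 of 7 members in hippocampus and 1 of 7 in prefrontal cortex, where 15.6% and 13.7% of all genes did the same. For the difference of the effects between regions 0% of 12894 genes were called, with 422 at an unadjusted p below 0.05. Nothing about irradiation is read from these counts.

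On the FXYD side, Fxyd1 averaged lower in irradiated mice in both regions. In prefrontal cortex all 3 irradiated libraries, 32.4 to 34.7 FPKM, lay below all 3 control libraries, 43.9 to 50.3 FPKM, and the difference was -0.48 ± 0.07 (SE, n = 3 each), between -0.54 and -0.44 with any 1 library left out. In hippocampus the difference was -0.45 ± 0.24, and irradiated mouse 3, at 143 FPKM, lay among the control libraries. Without irradiated mouse 2, the library low in choroid plexus transcripts, it was -0.18, and without irradiated mouse 3 it was -0.73.

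In hippocampus Fxyd1 and the choroid plexus genes varied side by side. The list summed to 3247, 80.3 and 4806 FPKM in irradiated mice 1, 2 and 3 and to 6031, 4845 and 3857 FPKM in control mice 1, 2 and 3; the libraries with the lowest 2 sums had the lowest 2 Fxyd1 levels and the library with the highest sum had the highest. All 21 genes of the list had lower means in irradiated hippocampus, with a median difference of -1.06, and limma called 0 of them (0 at an unadjusted p below 0.05). Without irradiated mouse 2 that median was -0.09, with 16 of 21 genes negative. Ependymal genes averaged lower too, at 38.2 to 77.5 FPKM in irradiated and 73.8 to 87.6 FPKM in control hippocampus. The lowest of these sums was that of irradiated mouse 2. Over the 10 genes tested the median difference was -0.40, and limma called 0 (5 at an unadjusted p below 0.05). Without irradiated mouse 2 the median was -0.14 over 11 genes, of which 10 were negative. Oligodendrocyte genes summed to 2229 to 2348 FPKM in irradiated and 2403 to 2925 FPKM in control hippocampus, with 11 of 12 negative and 0 called by limma (4 at an unadjusted p below 0.05). In prefrontal cortex the choroid list was near 0 by comparison, at 9.18 to 9.84 FPKM in irradiated and 11.9 to 74.0 FPKM in control mice; the lists of oligodendrocytes, at 1548 to 1703 FPKM in irradiated and 1789 to 1966 FPKM in control mice, and of meningeal and perivascular fibroblasts, at 299 to 668 and 813 to 954 FPKM, were lower together with Fxyd1. In prefrontal cortex 10 of 12 oligodendrocyte genes were negative and 2 positive, and limma called 0 (5 at an unadjusted p below 0.05). All 8 fibroblast genes tested were negative, and limma called 0 (6 at an unadjusted p below 0.05). Of 12 astrocyte genes 8 were negative and 4 positive there, and limma called 0 (1 at an unadjusted p below 0.05). The part of any of these cells in the Fxyd1 values was not tested.

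Fxyd5 averaged higher in irradiated hippocampus and lower in irradiated prefrontal cortex. Irradiated hippocampi had 4.27 to 6.13 FPKM, against 2.51 to 4.21 FPKM in control hippocampi; the groups stood apart by 4.27 against 4.21 FPKM at their edge, and the difference was 0.45 ± 0.17 (SE, n = 3 each), or 0.28 to 0.57 with 1 library left out. Irradiated prefrontal libraries had 4.73 to 5.74 FPKM, against 5.0 to 7.23 FPKM in control ones, a difference of -0.20 ± 0.12, or -0.31 to -0.08 with 1 library left out. The list of meningeal and perivascular fibroblast genes averaged the same way as Fxyd5 in both regions: 7 of 9 tested genes had higher means in irradiated hippocampus (950.3 to 1329.9 against 428 to 993 FPKM in sum) and 8 of 8 had lower means in irradiated prefrontal cortex (299 to 668 against 813 to 954 FPKM), with median differences of 0.57 and -0.37; limma called 0 in either, and 6 in each had an unadjusted p below 0.05. Most of that sum was Ptgds, which oligodendrocytes also express, at 871 to 1201 FPKM in irradiated and 324 to 886 FPKM in control hippocampus. Within the irradiated hippocampi the order was not shared, since mouse 2 had the highest Fxyd5 and the lowest fibroblast sum. Endothelial genes summed to 107 to 122 FPKM in irradiated and 72.2 to 88.0 FPKM in control hippocampus, and to 118 to 145 and 99.7 to 112 FPKM in prefrontal cortex, with mural cell genes at 69.7 to 89.0 against 45.2 to 62.7 FPKM and 63.0 to 73.3 against 65.7 to 67.7 FPKM. The part of these cells in the Fxyd5 values was not tested.

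**Figure D4:**
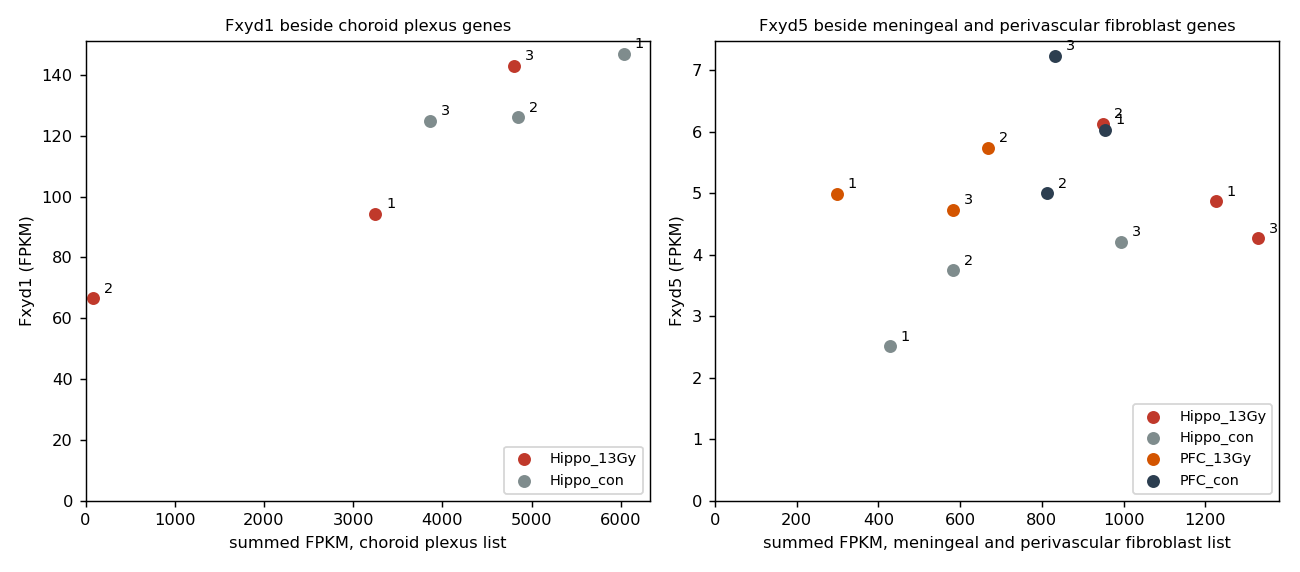
Left, Fxyd1 (FPKM) against the summed FPKM of 21 choroid plexus genes in the 6 hippocampal libraries; right, Fxyd5 (FPKM) against the summed FPKM of 12 meningeal and perivascular fibroblast genes in all 12 libraries; numbers are mice. Hippo_13Gy mouse 2 lies alone at the left of the choroid plexus plot, at 80.3 and 66.6 FPKM, and Hippo_con mouse 1 is the lowest hippocampal point for Fxyd5, at 2.51 FPKM.

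Fxyd6 and Fxyd7 overlapped between irradiated and control mice in both regions. Fxyd7 differed by 0.20 ± 0.12 in hippocampus and 0.10 ± 0.12 in prefrontal cortex, and Fxyd6 by 0.14 ± 0.11 and -0.02 ± 0.08. On the pump side every beta gene overlapped as well. Atp1b1 differed by 0.08 ± 0.08 in hippocampus and 0.09 ± 0.09 in prefrontal cortex, Atp1b2 by 0.09 ± 0.06 and -0.02 ± 0.07, and Atp1b3 by -0.12 ± 0.08 and -0.09 ± 0.08. These small values depended on single libraries: without irradiated mouse 2 Atp1b3 stood at -0.03 in hippocampus and -0.02 in prefrontal cortex. With 1 library left out Fxyd7 ran from 0.12 to 0.34 in hippocampus and 0.00 to 0.24 in prefrontal cortex, and Fxyd6 from 0.07 to 0.27 and -0.07 to 0.04. Atp1b1 ran from 0.04 to 0.13 and 0.02 to 0.12, and Atp1b2 from 0.06 to 0.14 and -0.07 to 0.02. The median absolute difference was 0.09 for the 3 beta genes in each region and 0.32 in hippocampus and 0.15 in prefrontal cortex for the 4 FXYD genes, against 0.08 over all genes in each. The members were chosen by these values, so a median above that of all genes can follow from the choice alone and is no result. The hippocampal 0.32 also takes in Fxyd1, at -0.45 with all libraries and -0.18 without irradiated mouse 2.

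**Figure D5:**
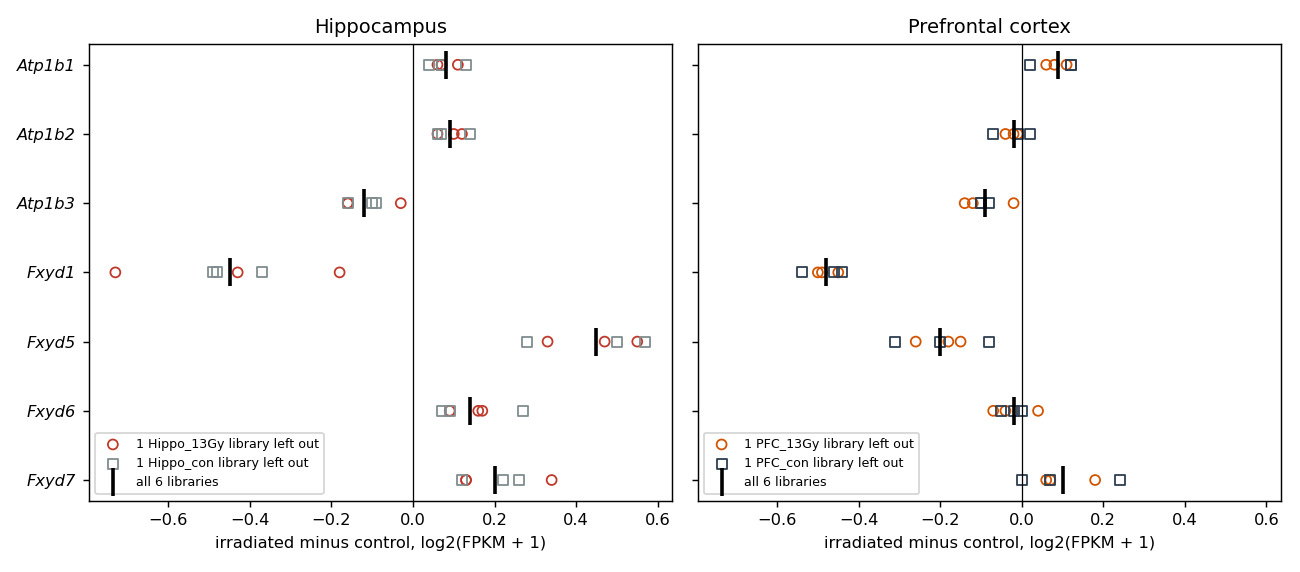
Irradiated minus control in log2(FPKM + 1) for each member with all 6 libraries of a region (black bar) and with 1 library left out (circles, an irradiated library; squares, a control library). Fxyd1 in hippocampus ranges from -0.73 to -0.18, and in prefrontal cortex from -0.54 to -0.44.

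The order of the 4 groups differed by gene. For Atp1b1, Atp1b2 and Fxyd1 both hippocampal groups lay above both prefrontal groups in every library, and for Fxyd6 and Fxyd7 below. Atp1b3 ran from Hippo_con through Hippo_13Gy and PFC_con to PFC_13Gy, with each neighbour overlapping the next. Fxyd5 ran from PFC_con through PFC_13Gy and Hippo_13Gy to Hippo_con, and only its last pair of neighbours stood apart. For Fxyd1 the PFC_13Gy and PFC_con groups stood apart too, while Hippo_13Gy and Hippo_con overlapped.

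The other genes of the enzyme gave the setting. Of 15 relatives in a fixed list, 8 were tested in irradiated mice, of which 4 were called higher and 2 lower in hippocampus, and 9 in control mice, of which 2 were called higher and 2 lower; for irradiation limma called 0 of the 9 tested in hippocampus and 0 of the 8 in prefrontal cortex, with 1 (Nkain4, -0.25) and 0 at an unadjusted p below 0.05.

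Of the FXYD genes outside the set, Fxyd2, the kidney pump's gamma subunit, had 6.1 against 7.66 FPKM in irradiated mice, which did not pass (-0.30 ± 0.11; limma adjusted p = 0.0785), and was called lower in control hippocampus, at 5.0 against 8.69 FPKM (-0.69 ± 0.08; limma adjusted p = 0.000174). It lies 3509 bases from Fxyd6, which was lower in hippocampus too. Fxyd3 averaged 1.18 FPKM in irradiated and 1.33 FPKM in control hippocampus, and Fxyd4 was listed at 0 in all libraries but 1. Among the NKAIN genes, which encode membrane proteins whose fly relative binds a beta subunit, Nkain3 was called higher in hippocampus in irradiated (5.64 against 1.62 FPKM, 1.35 ± 0.11; limma adjusted p = 7.47e-05) and control mice (4.36 against 1.53 FPKM, 1.07 ± 0.22; limma adjusted p = 0.00584). Nkain4 was likewise higher, by 0.36 ± 0.06 (limma adjusted p = 0.00425) and 0.50 ± 0.06 (limma adjusted p = 0.000236). Nkain1 and Nkain2 passed in irradiated mice, at 0.27 and -0.24 (limma adjusted p = 0.01 and 0.0433), and stood at 0.19 and -0.21 in control mice (limma adjusted p = 0.0814 and 0.0932); the difference between the treatments was not tested. The testis alpha Atp1a4, the colonic pump Atp12a and the gastric pump Atp4a were under 0.2 FPKM in each library, and Atp1b4 and Atp4b were listed at 0 in all 12.

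Transporters that run on the pump's gradients, with 2 potassium channels, Kcnj10 and Kcnj16, were a second list of 26 genes, all tested. In hippocampus 9 were called higher and 4 lower in irradiated mice, and 7 higher and 3 lower in control mice; for irradiation limma called 0 in either region, with 4 in hippocampus and 1 in prefrontal cortex at an unadjusted p below 0.05 and medians of 0.09 in hippocampus and 0.05 in prefrontal cortex. Slc24a3, a potassium-dependent sodium-calcium exchanger, had 60.4 against 30.4 FPKM in irradiated mice (0.97 ± 0.08; limma adjusted p = 9.83e-05) and 63.0 against 31.2 FPKM in control mice (0.99 ± 0.10; limma adjusted p = 8.39e-05). The neuronal potassium-chloride cotransporter gene Slc12a5 was lower, at 98.6 against 139 FPKM in irradiated mice (-0.49; limma adjusted p = 0.00139) and 85.2 against 128 FPKM in control mice (-0.58; limma adjusted p = 0.00017). So was the sodium-calcium exchanger gene Slc8a3, at 4.49 against 6.76 FPKM in irradiated mice (-0.50; limma adjusted p = 0.00377) and 3.87 against 7.13 FPKM in control mice (-0.74; limma adjusted p = 0.0002). The sodium bicarbonate cotransporter gene Slc4a7 was higher in hippocampus by 0.99 in irradiated (limma adjusted p = 9.11e-05) and 0.95 in control mice (limma adjusted p = 0.000314). The neuronal glutamate transporter gene Slc1a1 was higher by 0.44 in irradiated (limma adjusted p = 0.00101) and 0.40 in control mice (limma adjusted p = 0.00407).

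Calcium pumps, of the same P-type family, and their small regulators were a further list, which also split by gene. Of 8 tested, which include the regulator gene Sln, 3 were called higher and 2 lower in hippocampus in irradiated mice. In control mice 4 were called higher and 2 lower. For irradiation limma called 0 of 8 in hippocampus, with 3 at an unadjusted p below 0.05. In prefrontal cortex it called 0 of 7, Sln not being tested there, with 1 at an unadjusted p below 0.05. Of the plasma membrane calcium pumps, Atp2b3 was higher in hippocampus, at 45.4 against 25.9 FPKM in irradiated mice (0.78 ± 0.08; limma adjusted p = 0.000303) and 50.4 against 24.5 FPKM in control mice (1.01 ± 0.06; limma adjusted p = 3.8e-06). Atp2b2 was lower, at 82.6 against 154 FPKM (-0.89 ± 0.10; limma adjusted p = 0.000572) and 70.0 against 142 FPKM (-1.01 ± 0.08; limma adjusted p = 1.7e-05). Sln, which encodes sarcolipin, an inhibitor of the muscle calcium pump, was called higher in hippocampus in irradiated (3.68 against 0.543 FPKM, 1.55; limma adjusted p = 0.0029) and control mice (4.45 against 0.939 FPKM; limma adjusted p = 4.22e-05).

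For each member the genes most alike across the libraries were named by Pearson r of log2(FPKM + 1) after taking out each region's mean, over 12 libraries and 12894 genes. These points share their libraries, and with so many genes a high r arises somewhere by selection, so the values are descriptions. Treatment was not taken out, so the irradiated against control difference that chose the members is part of each r. For Fxyd1 they were Pcp4l1, Tmem86a and Dnase2a (r = 0.94 each), for Fxyd5 Erg, Ntng1 and Rnf219 (0.91, 0.91 and 0.89), for Fxyd6 Kazn, Meis2 and Gng4 (0.89, 0.88 and 0.87) and for Fxyd7 Cyp46a1, Brat1 and Slc20a1 (0.96, 0.93 and 0.92). For Atp1b1 they were Nkrf, Olfml2b and Mctp1 (0.96 each), for Atp1b2 Pcdh11x and Lrrtm3 (0.94 and 0.91) and for Atp1b3 Haus7, Cd63 and Phb (0.97, 0.96 and 0.96). Gng4 tracked Fxyd6 with r = 0.99 over the 6 hippocampal libraries and 0.07 over the 6 prefrontal ones, and Meis2 with 0.97 and 0.51, whereas Cyp46a1 tracked Fxyd7 with 0.94 and 0.98. Among the members themselves the highest values over 12 libraries were 0.72 for Atp1b2 with Fxyd6 and 0.71 for Atp1b3 with Fxyd1, and the lowest was -0.68 for Fxyd1 with Fxyd7; Fxyd1 and Fxyd5, on either side of Fxyd7, had -0.84 in hippocampus and 0.51 in prefrontal cortex.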

How the data were processed

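Per the labels' protocols, Trizol was used for extraction and a strand-marking NEBNext Ultra II kit for the libraries. Reads were aligned to mm10 with TopHat, per the submitters' processing notes; no source used here names the counting tool or annotation. The tables hold 1 value per gene without a unit. As deposited by the authors, these values were read as FPKM, because their sums differ between libraries while value times transcript length sums to nearly the same total (1.2 to 1.248 M, mega); RPKM would look alike. Depth was estimated from the steps of low values, with 326 genes behind the absolute scale, and the fragments of a member use its longest transcript. Of 23183 symbols 22148 (95.54%) matched GENCODE M21.

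limma-trend (limma 3.58.1, R 4.3.3) was run on log2(FPKM + 1), which understates changes near 1 FPKM, restricted to genes averaging 1 FPKM or more, two-sided, Benjamini-Hochberg adjusted over all genes tested, after a check on simulated data. The 2 groups compared entered each fit. p-values cover the spread between 3 mice per group, and FPKM give no counting error. In the region comparisons the 2 groups come from the same 3 mice, and the main fit did not pair them. Members and lists were chosen with earlier results of these data known. Named are all members, relatives above 1 FPKM in a group, up to 3 genes of smallest p per list and the 3 genes most alike to each member; a few genes that this rule takes are not reported here. The marker lists for microglia, oligodendrocyte precursors and blood cells held 1, 1 and 0 genes called higher and 0, 0 and 0 called lower in hippocampus in irradiated mice, and 0, 2 and 0 called higher and 0, 1 and 1 called lower in control mice. Of the oligodendrocyte list 12 of 12 genes were called higher in hippocampus in irradiated and 11 of 12 in control mice, of the ependymal list 8 of 8 and 9 of 9; of the striatal list 10 of 10 were called lower in both. Of the mural list limma called 0 of 10 in irradiated mice (2 at an unadjusted p below 0.05) and 4 of 9 lower in control mice. The titles number the mice, so same-numbered libraries of a treatment are the same mouse; their deviations from the group means correlated by 0.174 to 0.3 in irradiated and -0.006 to 0.29 in control mice. Alternatives were another pseudocount, no filter, equal totals, robust moderation, the mouse as a block, 1 fit over all libraries and each library left out.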

Additional observations from a re-analysis of the deposited data

How the results depend on the processing

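The members' region differences kept their direction under each alternative run, except that of Fxyd5 in irradiated mice, -0.02 with all libraries, which was 0.08 without Hippo_13Gy mouse 3, 0.05 without PFC_13Gy mouse 2 and -0.14 without Hippo_13Gy mouse 2. The calls on Fxyd1, Fxyd6 and Fxyd7 held in both treatments under each alternative. Over all genes 3758 were called in irradiated mice, and 2634 to 3492 with 1 library left out. In control mice 3922 were called, and 2920 to 3843 with 1 library left out. Of the 7 members, 4 to 5 were called in these runs in irradiated mice. In control mice it was 4 to 7 (4 without Hippo_con mouse 2, where 1 was called higher). The calls lost were those of beta genes; with no filter Atp1b1 lost its call in irradiated mice (limma adjusted p = 0.0765, in a range of 0.00717 to 0.0765 over the settings other than left-out libraries), and with equal totals Atp1b2 lost it in control mice (0.21, limma adjusted p = 0.0532, in a range of 0.0119 to 0.0532); the cause was not tested.

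Over all genes, irradiation in hippocampus gave 4 calls with equal totals, 3 with robust moderation and 1 in 1 fit over all 12 libraries, against 0, and 0 to 1 with a library left out. In prefrontal cortex it gave 2 with no filter and 0 in 1 fit over 12 libraries, against 1, and 1 to 4 with a library left out. The difference of the effects gave 1 with no filter, against 0, and 0 to 2 with a library left out. Equal totals moved the median irradiation difference of all genes by 0.08 in hippocampus and 0.07 in prefrontal cortex; there Atp1b1 and Atp1b2 in hippocampus stood at 0.17 and 0.18, and Atp1b2 in prefrontal cortex turned to 0.05 and Fxyd6 likewise to 0.05. Pairing the regions by mouse as a block gave 4629 calls in irradiated mice, against 3758, and 4326 in control mice, against 3922, and changed no member's call but that of Atp1b3. Irradiated and control mice share only a number: the block on it gave 0 calls in hippocampus and 1 in prefrontal cortex, as without it, with correlations of -0.16 to 0.103 and of 0.117 to 0.141. The values of Fxyd5 rest on the fewest fragments.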
